A study of Mus musculus with 8 samples.

Results

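The nuclear genes of oxidative phosphorylation were followed in 8 tumours of TRAMP-C2, a mouse prostate cancer cell line that was derived from the tumour of a TRAMP transgenic mouse. Members were the rows whose symbol began with Nduf, Uqcr, Cox4 to Cox8 or Atp5, or was Sdha, Sdhb, Sdhc or Sdhd, which gave 92 of 24028 genes, whatever their values. They comprised 44 genes of complex I, 4 of complex II, 8 of complex III, 20 of complex IV and 16 of complex V, the ATP synthase. The symbols Cox4 to Cox8 take in structural subunits of complex IV, so that the only assembly factors among the members were 8 of complex I. Immune-competent C57BL/6 males had received the cells into the dorsolateral prostate. 4 tumours came from aged hosts (20 to 24 months old) and 4 from young hosts (4 months old), and all were taken 30 to 45 days after injection, from 19 aged and 20 young hosts injected. Each tumour is called by its host group and mouse number. All tumours share a single cell line, and bulk RNA holds transcripts of the injected cells and of host cells together, so that fewer cells of a type and less RNA per cell cannot be told apart. No source used here gives cages, litters or days of surgery, and p-values measure only the spread between these tumours.

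Oxidative phosphorylation takes electrons from NADH at complex I and from succinate at complex II, passes them through ubiquinone, complex III and cytochrome c to oxygen at complex IV, and uses the proton gradient so built to drive complex V. The complexes are assembled from many small nuclear-encoded subunits and, except for complex II, a few subunits encoded by mitochondrial DNA, which were not analysed here. Most cells use one common set of subunits, while a few positions of complex IV have alternative isoforms restricted to muscle, testis, lung or low-oxygen settings. The factors NRF1, GABPA, YY1 and ESRRA are known activators of these genes, and hypoxia-inducible factor (HIF) is known to change isoforms of complex IV.

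The promoters of the members were searched for the letters that these factors are known to prefer, because a shared promoter motif is one of the features the choice by symbol did not use. RefSeq windows of GRCm38 from 250 bases before to 50 bases after a gene's start matched 76 of the 92 members, with 82 windows. The NRF1 letters GCGCATGCG, read on both strands like all others, stood in 12.2% of the members' windows (10 windows), in 3.19% of the 14556 windows of all genes tested and in 1.75% of all 32851 windows. The YY1 letters AAGATGGC stood in 14.6%, 3.98% and 2.75% in turn. The ESRRA letters TCAAGGTCA stood in 2.44% of the members' windows, which is 2 windows, against 0.268% and 0.423%. The GABPA letters CCGGAAGT stood in 6.1%, against 7.17% of the windows of all genes tested, and the HIF core letters ACGTG in 26.8%, against 24.5%. A match is a description of letters and not of binding. The NRF1 letters were shortened by a base after a first search, so their share among the members does not rest on letters fixed beforehand. A window of a member of each complex follows, to show what these shares rest on, with the matched letters in capitals. There is a GABPA match in Ndufs3 that begins at the annotated start, an ESRRA match in Sdhd that begins 36 bases after the first base of the gene, and NRF1 matches in Uqcrc1, Cox6a1 and Atp5g2 at 30, -162 and -42 on the same count. Each of these NRF1 matches is on both strands, shifted by 1 base, and the capitals span both. The Atp5g2 window also holds the HIF letters at -240. These HIF letters, the GABPA match in Ndufs3 and the ESRRA match in Sdhd are read on the other strand, so the capitals there are the reverse complement of the letters named.
Ndufs3 (chr2:90904672-90904971, minus strand): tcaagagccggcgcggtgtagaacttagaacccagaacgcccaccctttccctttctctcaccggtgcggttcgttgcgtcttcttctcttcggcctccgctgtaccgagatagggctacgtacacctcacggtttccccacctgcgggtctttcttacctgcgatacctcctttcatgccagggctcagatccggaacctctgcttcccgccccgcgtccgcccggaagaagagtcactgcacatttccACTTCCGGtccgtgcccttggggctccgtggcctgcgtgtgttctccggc
Sdhd (chr9:50603800-50604099, minus strand): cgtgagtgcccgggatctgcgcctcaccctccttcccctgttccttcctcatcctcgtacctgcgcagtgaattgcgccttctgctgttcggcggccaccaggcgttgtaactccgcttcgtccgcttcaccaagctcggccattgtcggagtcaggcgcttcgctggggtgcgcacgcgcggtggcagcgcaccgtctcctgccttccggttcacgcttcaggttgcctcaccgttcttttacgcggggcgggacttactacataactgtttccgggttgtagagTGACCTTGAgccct
Uqcrc1 (chr9:108936398-108936697, plus strand): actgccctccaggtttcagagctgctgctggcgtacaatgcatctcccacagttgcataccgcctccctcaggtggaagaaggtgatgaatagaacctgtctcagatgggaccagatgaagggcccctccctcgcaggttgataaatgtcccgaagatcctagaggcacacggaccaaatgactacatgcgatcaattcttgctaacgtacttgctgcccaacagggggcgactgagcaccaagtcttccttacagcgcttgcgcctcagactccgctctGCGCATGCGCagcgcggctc
Cox6a1 (chr5:115348909-115349208, minus strand): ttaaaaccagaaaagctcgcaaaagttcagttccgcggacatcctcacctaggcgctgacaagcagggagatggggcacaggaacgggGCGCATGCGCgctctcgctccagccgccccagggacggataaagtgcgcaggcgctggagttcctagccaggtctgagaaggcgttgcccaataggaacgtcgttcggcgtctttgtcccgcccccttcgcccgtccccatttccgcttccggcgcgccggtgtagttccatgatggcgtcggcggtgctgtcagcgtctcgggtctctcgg
Atp5g2 (chr15:102670998-102671297, minus strand): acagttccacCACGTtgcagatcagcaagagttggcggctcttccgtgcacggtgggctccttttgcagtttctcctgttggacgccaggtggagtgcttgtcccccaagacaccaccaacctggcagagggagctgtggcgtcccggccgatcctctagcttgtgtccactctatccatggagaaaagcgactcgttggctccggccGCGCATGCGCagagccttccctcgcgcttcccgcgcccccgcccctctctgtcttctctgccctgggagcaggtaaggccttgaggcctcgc

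Each tumour had between 27.1 and 35.7 M counted fragments. Levels are in CPM, the fragments of a gene scaled to a common library total, on which 3 fragments come to 0.084 to 0.111. That floor allows for counting error and nothing else. The label of prostate epithelial cancer was checked against 9 epithelial markers, all detected: their sum was 316, 472, 749 and 151 CPM in aged 46, 47, 50 and 51, and 400, 480, 240 and 77.2 CPM in young 36, 37, 40 and 43. Epcam was lowest in young 43 (0.7 CPM) and young 40 (4.54 CPM) and had 8.67 to 69.4 CPM in the other 6, while Krt8 was lowest in aged 51 (21.5 CPM). Seminal vesicle transcripts summed to 22952 CPM in aged 50 and 38197 CPM in young 36 and to at most 18.9 CPM elsewhere. Prostate secretory markers summed to 11140 CPM in young 37, 6089 in aged 50 and 1507 in young 36, and to 6.02 to 255 CPM in the other 5. Skeletal muscle markers summed to 198 CPM in aged 51 and to 11.4 to 46.5 CPM in the others.

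Transcripts of the 92 members made up 0.891% to 1.1% of all fragments in every tumour. The sum was 11004 CPM in aged 46, 11011 in aged 47, 10219 in aged 50 and 9819 in aged 51, and 10094 CPM in young 36, 11040 in young 37, 10009 in young 40 and 8911 in young 43. The ranges of the host groups overlapped, with a mean of 10513 ± 594 CPM in the aged and 10014 ± 871 CPM in the young tumours (SD, n = 4 each). Complex V took the largest share, with summed levels of 3969 ± 210 CPM in the aged and 3807 ± 183 CPM in the young tumours, followed by complex I with 2939 ± 227 and 2838 ± 299 CPM and complex IV with 2051 ± 137 and 1939 ± 285 CPM. Complex III stood at 970 ± 45 and 886 ± 111 CPM and complex II at 584 ± 13.1 and 544 ± 30.2 CPM. These sums are a description and were given no test.

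Per length, the roles of the members differed in level. FPKM (CPM per kilobase of the transcript length in the deposited table) had a median over the 8 tumours of 291 for Atp5a1 and 504 for Atp5b, the alpha and beta subunits that form the catalytic head of the ATP synthase. Cox4i1, a common nuclear subunit of complex IV, had 485 FPKM and Ndufa4, now placed in complex IV, 436 FPKM. The 11 common subunits of complex IV ranged from 112 FPKM (Cox7b) to 485 FPKM, and the 8 subunits of complex III from 67.1 FPKM (Uqcrc2, a core protein) to 286 FPKM (Uqcrh, the hinge protein). The 4 subunits of complex II kept close to each other: the flavoprotein Sdha had 81.7 FPKM, the membrane anchors Sdhc and Sdhd 88.5 and 101, and the iron-sulphur protein Sdhb 92. In complex I the 7 core subunits had a median of 71.8 FPKM, with Ndufs1, the largest iron-sulphur subunit, at 18.5 FPKM, and the 29 accessory subunits from 14.9 FPKM (Ndufa11) to 275 FPKM (Ndufa7). The 8 complex I assembly factors, which help build the complex without staying in it, lay lower at 2.9 FPKM (Ndufaf6) to 36.7 FPKM (Ndufaf2). Such levels rest on the length in the table, which is 3395 bases for Ndufa11 and 3871 bases for Atp5f1 (77.6 FPKM), against a median of 746.5 bases for the members. A longer listed length gives a lower FPKM for the same count.

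**Figure D1:**
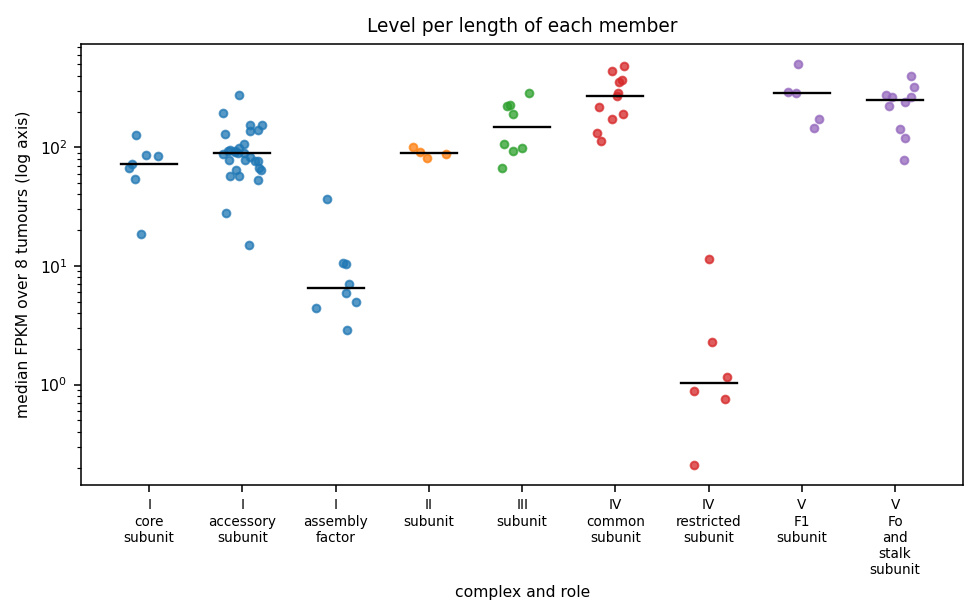
Median FPKM over the 8 tumours of each member (points, logarithmic axis) by complex and role, with a bar at the median of the members drawn. Cox7b2 and Cox8c are at 0 and Cox7a2l and Atp5s are not drawn. Common subunits of complexes IV and V lie highest, with medians of 271 FPKM (complex IV), 289 FPKM (F1) and 252 FPKM (Fo and stalk), and the complex I assembly factors at a median of 6.47 FPKM.

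The comparison of aged with young hosts asks how the host's age goes with the expression of the same tumour line. 89 of the 92 members passed the filter on low counts and were tested: all of complexes I, II, III and V and 17 of 20 of complex IV. By edgeR's quasi-likelihood test, 0 of the 89 passed a Benjamini-Hochberg adjusted p of 0.05, against a background of 0% of 14575 genes. At an unadjusted p of 0.05 it was 1 of 89 (Ndufa4l2, lower in aged tumours), which is 1.12%, against 4.99% of all genes (2.34% higher and 2.66% lower in aged). DESeq2 called 0 members (background 0.295%) and 4 at an unadjusted p of 0.05 (background 6.02%), with Ndufs3, Ndufa10 and Atp5c1 higher (background 2.95%) and Ndufa4l2 lower (3.07%). Voom with sample weights called 0 (background 0%) and 4 unadjusted (background 10.1%). Of these, Ndufs3 and Ndufa10 were higher (background 4.8%) and Ndufa4l2 and Ndufb2 lower (5.28%). In both directions together, the members' share at the unadjusted threshold (4.49% by DESeq2 and by voom) was below that of all genes, while the share higher in aged by DESeq2 (3.37%) was slightly above.

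The members were measured more closely than most genes, and most intervals excluded large differences. The median standard error of a member's log2 fold change was 0.15, against 0.21 over all genes tested. For 83 of 89 members (93.3%, against 69.9% of all genes) the 95% interval of the log2 fold change lay within 1 of 0, that is within a 2-fold difference, and for 62 members (69.7%, against 30.5%) it lay within 0.5 of 0. The 6 members with wider intervals were Ndufaf3 and all 5 tested restricted isoforms of complex IV. The narrowest interval was that of Sdhc, from -0.17 to 0.24. The median log2 fold change, aged minus young, was 0.05 over all members and 0.03 over all genes tested, and 62 of 89 members lay above 0 (69.7%, against 55.3% of all genes). By complex it was 0.03 for I, 0.07 for II, 0.12 for III, 0.06 for IV and 0.03 for V. Young 43 decided the sign: without it the median of all members was -0.02, of complex I -0.06, of IV -0.04 and of V -0.05, and only 42 members lay above 0, while complexes II and III kept 0.08 and 0.03.

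**Figure D2:**
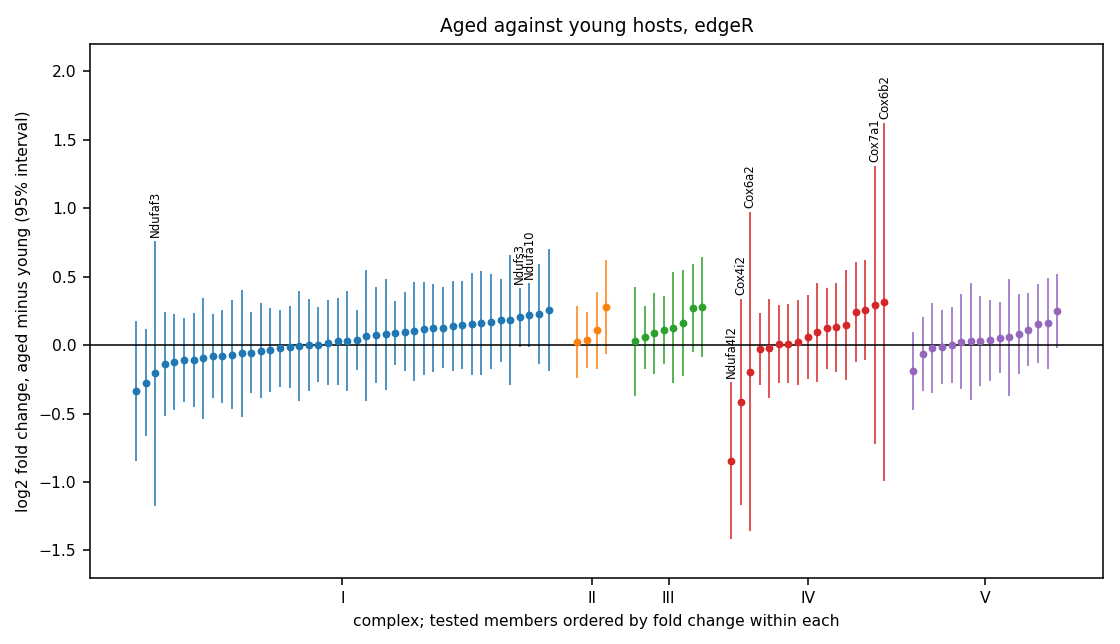
The log2 fold change, aged minus young, of each of the 89 tested members with its 95% interval from edgeR, by complex. All intervals but that of Ndufa4l2 (-1.42 to -0.27) include 0, and the widest belong to low-count isoforms of complex IV such as Cox6b2 (-0.99 to 1.62).

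In complex I, the NADH dehydrogenase, 26 of 44 members had higher and 18 lower values in aged tumours. 0 passed and none was under an unadjusted p of 0.05 by edgeR. Ndufs3, a core subunit of the arm that reaches into the matrix (Entrez 68349, GRCm38 chromosome 2, 90894627 to 90904721), had 84.5, 90.5, 85.0 and 86.5 CPM in aged 46, 47, 50 and 51, and 78.0, 73.7, 76.2 and 75.7 CPM in young 36, 37, 40 and 43. Every aged tumour lay above every young tumour, with means of 86.6 ± 2.73 and 75.9 ± 1.78 CPM (SD, n = 4 each). The log2 fold change was 0.20 ± 0.09 (SE), with an edgeR adjusted p of 0.92. Ndufa10, an accessory subunit (67273, chromosome 1, 92439486 to 92473825), had 83.2, 83.0, 78.6 and 89.3 CPM in the aged and 68.5, 70.9, 74.9 and 75.8 CPM in the young tumours, again without overlap. Its log2 fold change was 0.22 ± 0.10 (edgeR adjusted p = 0.92).

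Over all members, the groups did not overlap for 3 of 89 after scaling, Ndufs3 and Ndufa10 above and Ndufa4l2 below (3.37%, against 3.66% of all genes tested, 1.35% above and 2.31% below). The count was 6 without aged 50 (6.74%, against 8.83% of all genes in that setting) and 5 without young 36 (5.62%, against 5.33%), where fewer tumours are compared. By GENCODE, 25 of the 92 members share exon bases with another gene, 23 of them on the opposite strand. Exons of Ndufs3 overlap those of Kbtbd4 on the opposite strand by up to 85 bases, and how the counting treated strand was not stated in any source used here.

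Among other parts of complex I, Ndufv1, which binds NADH and the flavin, had 143 ± 22.5 CPM in the aged and 127 ± 9.24 CPM in the young tumours (SD, n = 4 each). Ndufs1 had 76.8 ± 5.05 and 72.7 ± 10.4 CPM. The accessory subunit Ndufa7 had 200 CPM in aged 46, 149 in aged 47, 141 in aged 50 and 115 in aged 51, against 154, 151, 131 and 101 CPM in young 36, 37, 40 and 43, and its log2 fold change was 0.18 ± 0.21. Ndufb2, a membrane arm subunit, had 26.4 CPM in aged 51 and 37.2 to 41.3 CPM in the other aged tumours, against 34.0 to 50.0 CPM in the young tumours (log2 fold change -0.27 ± 0.17, edgeR adjusted p = 0.92). Its exons overlap those of Braf on the opposite strand and of Gm42420 on the same strand. Of the 8 assembly factors, 3 had higher and 5 lower values, with a median log2 fold change of -0.08. Ndufaf6 had 8.38 ± 0.77 and 8.83 ± 1.94 CPM.

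2 members of complex I stood apart in single tumours and are named after their values were seen. Ndufa5, an accessory subunit, had 96.8 CPM in young 40 and 41.7 to 59.1 CPM in the other 7 tumours. Ndufaf3, an assembly factor, was lowest in aged 51 at 1.72 CPM and highest in aged 50 at 9.68 CPM, with the other 6 between 4.76 and 7.45 CPM. The young 40 value is far above both groups for Ndufa5, while for Ndufaf3 the extremes are both aged. Exons of Ndufaf3 overlap those of Impdh2 on the opposite strand by up to 48 bases.

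All 4 genes of complex II, the succinate dehydrogenase of the citric acid cycle and the respiratory chain, had slightly higher mean values in aged tumours, and 0 passed. Over all genes tested, 55.3% had log2 fold changes above 0. Sdhd had 131, 139, 129 and 168 CPM in aged 46, 47, 50 and 51, and 123, 136, 114 and 99.9 CPM in young 36, 37, 40 and 43. By the deposited CPM only young 37 lay within the aged range, while after TMM scaling young 36 did too. The log2 fold change was 0.28 ± 0.15 (edgeR adjusted p = 0.92). Sdha had 241 ± 18.7 and 227 ± 24.9 CPM (SD, n = 4 each), Sdhb 96.8 ± 6.21 and 95.9 ± 11.2, and Sdhc 105 ± 6.04 and 103 ± 6.83 CPM. For Sdhb the sign of the fold change turned under voom (-0.04) and without young 43 (-0.06).

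All 8 genes of complex III, the cytochrome bc1 complex, had log2 fold changes above 0, from 0.03 to 0.28, and 0 passed. Of all genes tested 55.3% lay above 0, and without young 43 the median of complex III fell from 0.12 to 0.03. Uqcrfs1, the Rieske iron-sulphur protein that hands electrons to cytochrome c1, had 155, 129, 120 and 140 CPM in the aged and 119, 125, 108 and 104 CPM in the young tumours, in the order of mice given above. By the deposited CPM its lowest aged value, in aged 50, lay just above young 36 and below young 37. After TMM scaling it lay below both. The log2 fold change of Uqcrfs1 was 0.27 ± 0.14 (edgeR adjusted p = 0.92). Uqcr10, a small subunit, had 102, 110, 95.3 and 120 CPM in the aged and 92.3, 106, 87.8 and 68.5 CPM in the young tumours (0.28 ± 0.16, edgeR adjusted p = 0.92). The core proteins differed less, Uqcrc1 by 0.06 ± 0.10 and Uqcrc2 by 0.11 ± 0.11. Uqcrh had 102 CPM in young 43 and 140 to 178 CPM in the other 7 tumours.

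**Figure D3:**
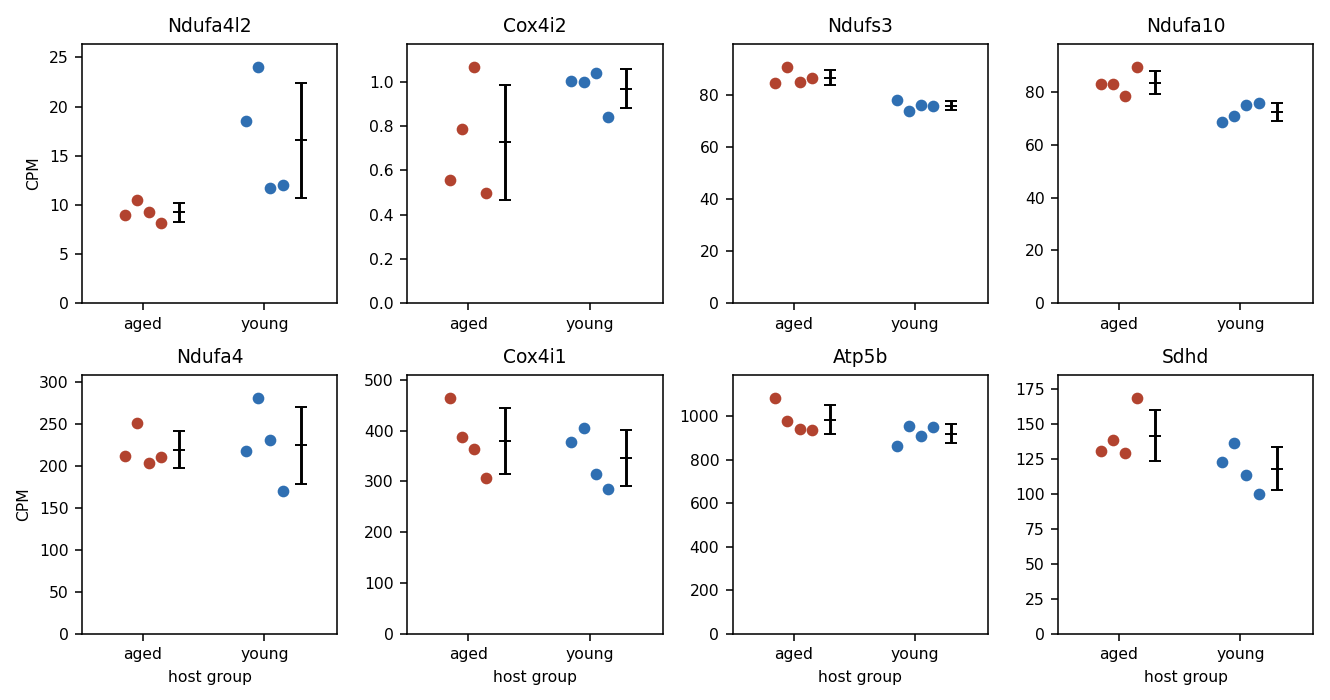
CPM of 8 members in each tumour (points; order within a group has no meaning) with the group mean and SD beside them (black), each axis starting at 0. Ndufa4l2 lies lower in all 4 aged tumours (8.11 to 10.5 CPM against 11.7 to 24.0 CPM), Ndufs3 and Ndufa10 lie higher, and Cox4i1, Ndufa4, Atp5b, Sdhd and Cox4i2 overlap between the groups.

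In complex IV, cytochrome c oxidase, the common subunits and the restricted isoforms are described apart. Of the 11 common subunits, 9 had higher and 2 lower values in aged tumours, all with a log2 fold change between -0.03 and 0.24, and 0 passed. Without young 43 the median over all tested members of complex IV was -0.04. Cox4i1 had 464, 387, 363 and 308 CPM in aged 46, 47, 50 and 51, and 378, 404, 316 and 285 CPM in young 36, 37, 40 and 43, so that the groups overlapped (log2 fold change 0.15 ± 0.18). Cox6a1 had 196 ± 13.7 and 197 ± 29 CPM, Cox6b1 135 ± 13.1 and 134 ± 18, Cox7a2 99.3 ± 8.5 and 98.4 ± 15.9, Cox7b 114 ± 7.82 and 106 ± 15.6, and Cox8a 192 ± 27 and 176 ± 24.2 CPM (SD, n = 4 each). Cox7a2l, classed here as a factor of supercomplexes of complexes III and IV, had 209 to 236 CPM in aged tumours. It had 232, 203, 167 and 151 CPM in young 36, 37, 40 and 43. It was lower in 3 of the 4 young tumours than in any aged tumour, and its log2 fold change was 0.26 ± 0.16 (edgeR adjusted p = 0.92).

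Ndufa4l2, the isoform of Ndufa4 that is known to be induced in low oxygen and to be found in pericytes of several tissues, had the smallest p of all members. It had 9.01, 10.5, 9.31 and 8.11 CPM in aged 46, 47, 50 and 51, and 18.6, 24.0, 11.7 and 12 CPM in young 36, 37, 40 and 43 (Entrez 407790, GRCm38 chromosome 10, 127509274 to 127517154). All 4 aged tumours lay below all 4 young tumours, but young 40 and young 43 lay near the aged range and young 36 and young 37 far above it. Means were 9.22 ± 0.971 CPM in the aged and 16.6 ± 5.87 CPM in the young tumours (SD, n = 4 each). The log2 fold change was -0.84 ± 0.25 (SE; 95% interval -1.42 to -0.27), with an edgeR p of 0.0089 and an adjusted p of 0.92, so the gene did not pass. The adjusted p was 0.27 by DESeq2 and 0.42 by voom. Without young 37, the tumour highest in prostate secretory markers, the log2 fold change was -0.61, and without young 40 -0.99. Without both aged 50 and young 36, the tumours with seminal vesicle transcripts, it was -0.75 with an edgeR p of 0.052, and without aged 51 as well it was -0.68 with a p of 0.12.

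Ndufa4 itself had 219 ± 21.8 CPM in the aged and 224 ± 45.6 CPM in the young tumours (SD, n = 4 each). Per length, Ndufa4l2 stood at 2.15% ± 0.151 of Ndufa4 in aged and 3.74% ± 0.836 in young tumours, with every young value (2.6% to 4.37%) above every aged value (1.97% to 2.34%), given without a test. Most pericyte markers, the receptor gene Pdgfrb among them, also had lower values in aged tumours. The summed level of the 8 markers was 235 to 362 CPM in the aged and 396 to 574 CPM in the young tumours. Most of the sum in each tumour came from Pdgfrb, Notch3 and Mcam. All 8 were detected and 6 of 8 had lower values in aged tumours. Of these markers 0 passed the adjusted threshold and 4 were under an unadjusted edgeR p of 0.05 (Pdgfrb, Notch3, Mcam and Cspg4). Over all genes tested, 2.66% were lower in aged tumours at that p. Kcnj8 (log2 fold change -0.34 ± 0.34) and Abcc9 (-0.23 ± 0.24) were lower with groups that overlapped. Rgs5 (log2 fold change 0.14 ± 0.36) and Higd1b (0.01 ± 0.36) were not lower in aged tumours. Pdgfrb had 75.9, 129, 159 and 104 CPM in the aged and 189, 183, 225 and 266 CPM in the young tumours. Within the young group the order differed: young 43 had the highest Pdgfrb and nearly the lowest Ndufa4l2, and young 37 the reverse. The part of pericyte content in the Ndufa4l2 difference was not tested. Exons of Ndufa4l2 overlap those of Shmt2 on the opposite strand by up to 32 bases.

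The other restricted isoforms of complex IV were near the limit of detection. Cox4i2, the lung and low-oxygen form of Cox4i1, had 15 to 38 fragments per tumour, or 0.727 ± 0.259 CPM in the aged and 0.971 ± 0.0892 CPM in the young tumours (SD, n = 4 each), and per length 0.116% to 0.319% of Cox4i1. Its log2 fold change was -0.42 ± 0.33, with an interval from -1.17 to 0.34. Cox6a2 and Cox7a1, the heart and skeletal muscle forms, had 4 to 22 and 15 to 49 fragments. The muscle markers were highest in aged 51 (198 CPM). Cox7a1 had 0.562 CPM there (17 fragments), against 0.52 to 1.52 CPM elsewhere. Cox6a2 had 0.662 CPM (20 fragments), within the range of 0.124 to 0.728 CPM of the others. The part of muscle tissue in the Cox7a1 and Cox6a2 values was not tested. Cox8b, a muscle and brown fat form, had 15 fragments (0.496 CPM) in aged 51 and 0 to 5 fragments in the other 7 tumours, and was not tested. The sum of the adipocyte markers was also highest in aged 51, at 622 CPM against 60.5 to 250 CPM, and Fabp4 alone had 398 CPM there. Adipoq, Cidec, Pnpla2, Cidea and Ucp1 were also highest in aged 51, while Cfd and Plin1 were highest in young 43 and Lep in aged 50. The part of muscle or fat tissue in the Cox8b value was not tested. Cox6b2, the testis form, had 7 to 39 fragments, and its log2 fold change of 0.32 ± 0.58 had an interval from -0.99 to 1.62. Cox7b2 and Cox8c, also testis forms, had 0 fragments in all 8 tumours, which allows at most 0.084 to 0.111 CPM per tumour.

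In complex V 12 of 16 genes had higher and 4 lower values in aged tumours, and 0 passed. Without young 43 the median log2 fold change of complex V was -0.05. Atp5c1, the gamma subunit of the rotating stalk, had 289, 278, 261 and 307 CPM in the aged and 259, 233, 236 and 236 CPM in the young tumours. The deposited CPM of the groups did not overlap, with aged 50 just above young 36, but they did after TMM scaling, and the log2 fold change was 0.25 ± 0.12 (edgeR adjusted p = 0.92). The catalytic subunit gene Atp5b, the most abundant member, had 1083, 977, 943 and 935 CPM in the aged and 864, 956, 911 and 950 CPM in the young tumours (0.11 ± 0.12, interval -0.15 to 0.38), and Atp5a1 had 732 ± 61.9 CPM (aged) and 701 ± 68.2 CPM (young; SD, n = 4 each). Atp5s, a regulatory factor at low level, had 7.46 ± 1.16 and 7.34 ± 0.846 CPM.

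3 genes, Atp5g1, Atp5g2 and Atp5g3, encode the same mature c subunit of the rotor ring. Per length, Atp5g2 gave 52.6% ± 3.51 of their sum in aged and 52.6% ± 1.45 in young tumours, Atp5g3 33.1% ± 2.78 and 31.3% ± 2.14, and Atp5g1 14.4% ± 1.69 and 16.1% ± 0.908 (SD, n = 4 each). Atp5g1 had 71.1 CPM in aged 51, against 98.4, 98.4 and 104 CPM in the other aged and 103 to 113 CPM in the young tumours (log2 fold change -0.19 ± 0.12, edgeR adjusted p = 0.92). The order Atp5g2, Atp5g3, Atp5g1 was the same in each of the 8 tumours.

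Differences between tumours of the same host group ran across all complexes. The median SD of a member's log2 CPM was 0.165 within the aged and 0.227 within the young group, against 0.334 and 0.227 over all genes tested. Complex IV, for example, summed to 1553 CPM in young 43 and 2231 CPM in young 37, with the other 6 tumours between 1873 and 2185 CPM. Young 43 had the lowest scaled level of 52 of the 89 tested members (58.4%, against 16.5% of all genes tested), and young 37 the highest of 39 (43.8%, against 7.47%). Aged 46 had the highest level of 27 members (30.3%, against 16.4%) and aged 51 the lowest of 18 (20.2%, against 21%). The median deviation of the members from their mean over the 8 tumours was -0.28 on the log2 scale in young 43, 0.18 in young 37, 0.13 in aged 46 and between -0.08 and 0.06 in the other 5. In young 43 it was -0.35 in complex IV, -0.31 in complex III, -0.25 in complex I, -0.20 in complex II and -0.18 in complex V. Young 43 also had the lowest epithelial sum (77.2 CPM) and the highest pericyte sum (574 CPM). Of the pericyte markers, Pdgfrb, Notch3, Mcam and Cspg4 were highest there, and Rgs5, Kcnj8, Abcc9 and Higd1b were not. Young 37 had the highest epithelial sum of the young group (480 CPM) and the highest prostate secretory sum (11140 CPM). The part of cell content in these differences was not tested.

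**Figure D4:**
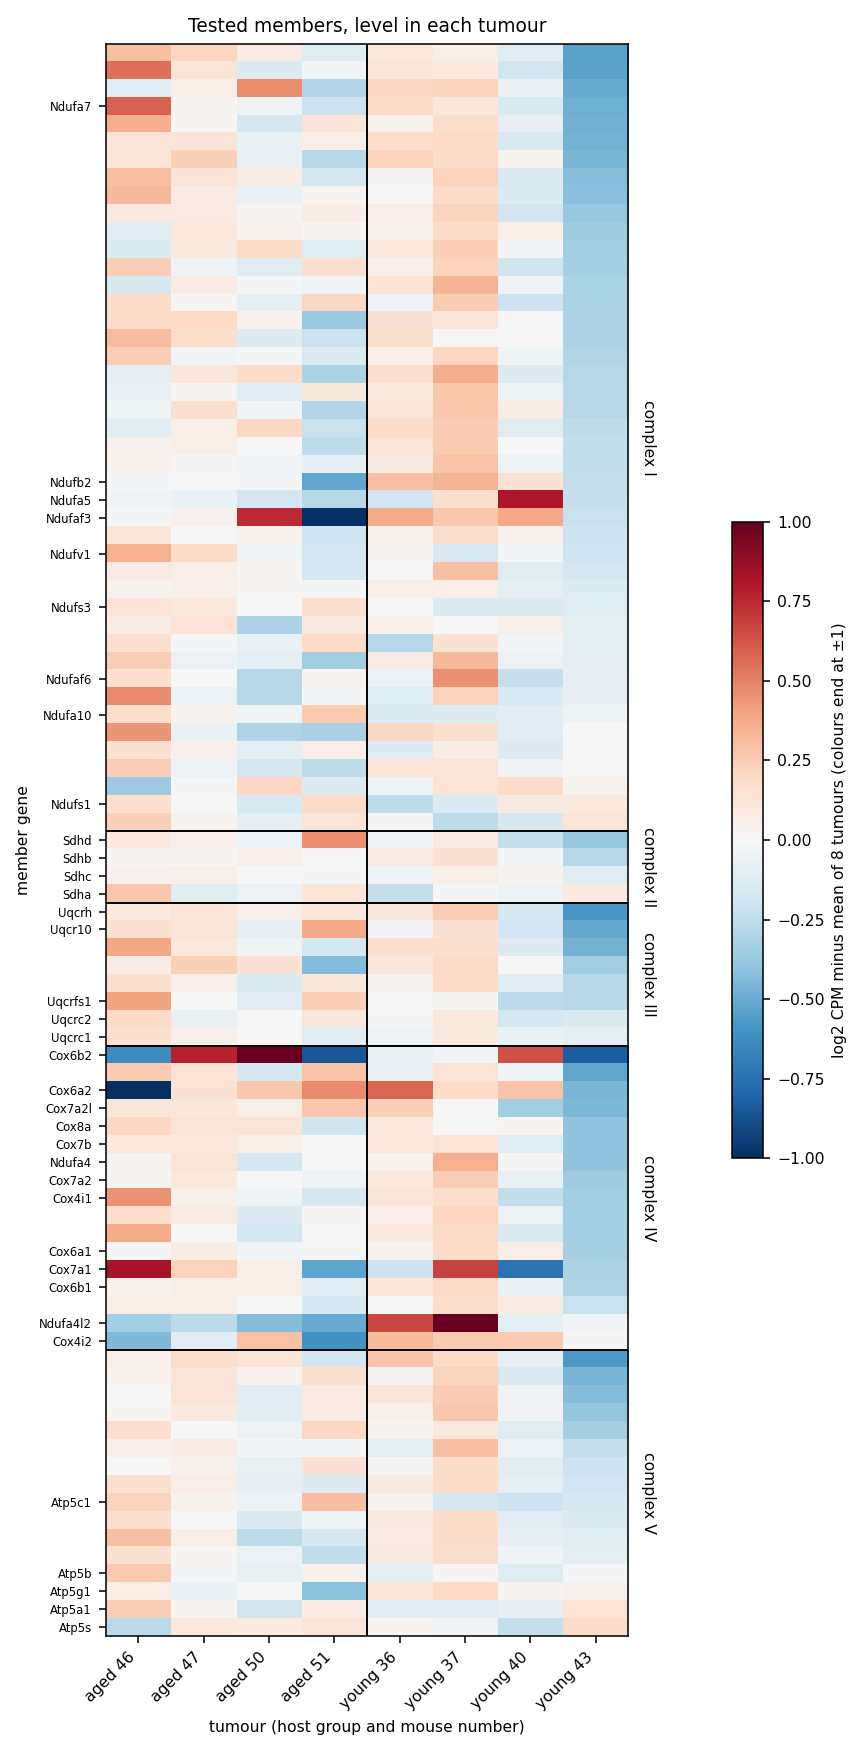
Log2 CPM (TMM scaled, prior count 2) of each of the 89 tested members minus its mean over the 8 tumours, by complex (horizontal lines, rows within each ordered by the value in young 43, with symbols for the named genes) and host group (vertical line), with colours ending at ±1. The column of young 43 is mostly blue (79 of 89 members below their mean) and that of young 37 mostly red (13 of 89 below).

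This pattern differed by transcript length. Members of under 700 bases (41 tested) had a median deviation of -0.36 in young 43, those of 700 to under 1500 bases (27) -0.21 and those of 1500 bases or more (21) -0.09. Over all genes tested, the 366 genes of under 700 bases had -0.35 there, the 1793 of the middle class -0.21 and the 12416 longer genes 0.06. In young 37 the shortest class stood at 0.19 among the members and 0.21 over all genes. Of the 21 longest members 15 were still below their mean in young 43 and 6 above, from -0.53 (Ndufb8) to 0.19 (Atp5s). The members' median length was 746.5 bases, against 3268 for all genes tested. The part of fragment or RNA length in the differences between tumours was not tested. Between host groups, the median log2 fold change was 0.06, 0.03 and 0.11 for the 3 classes of members, and 0.05, 0.02 and 0.03 for all genes.

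**Figure D5:**
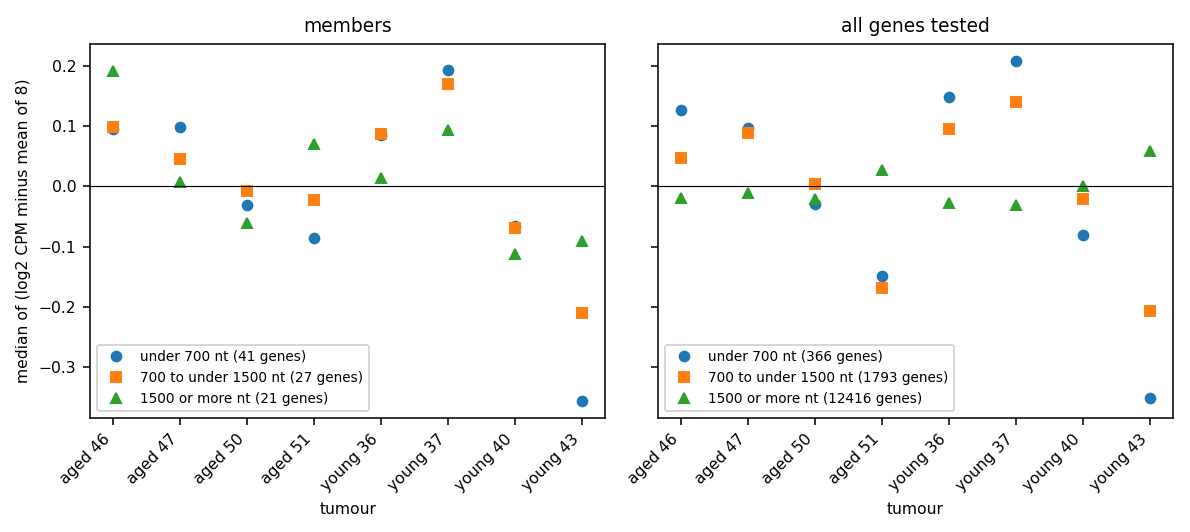
Median deviation from the mean of 8 tumours (log2 CPM) in each tumour for 3 classes of transcript length, among the tested members (left) and all genes tested (right). Genes of under 700 bases lie lowest in young 43 (-0.36 and -0.35) and highest in young 37 (0.19 and 0.21) in both panels.

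Other genes of the pathway were read from 3 further lists. Of 39 other subunits and assembly factors, among them cytochrome c and the factors that load copper and haem into complex IV, 19 had higher and 20 lower values in aged tumours, 0 passed and 0 were under an unadjusted p of 0.05, with a median log2 fold change of -0.01. Bcs1l, which inserts the Rieske protein into complex III, had 5.76 CPM in aged 51 and 14.6 to 18.1 CPM in the other 7 tumours (-0.47 ± 0.27, edgeR adjusted p = 0.92), and Nubpl, an iron-sulphur carrier for complex I, had a log2 fold change of 0.37 ± 0.22 (edgeR adjusted p = 0.92). Of 13 citric acid cycle enzymes 11 had higher and 2 lower values and 0 passed, adjusted or unadjusted, with a median of 0.09. Of all genes tested 55.3% had higher values in aged tumours. Citrate synthase (Cs) had 218 ± 27.4 CPM in the aged and 189 ± 22.1 CPM in the young tumours, and Dld, the shared dehydrogenase of the oxo acid complexes, 152 ± 37 and 123 ± 12.9 CPM (SD, n = 4 each).

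Of 12 regulators of mitochondrial biogenesis, 6 had higher and 6 lower values and 0 passed, with a median of -0.03. Ppargc1a, the coactivator known to raise oxidative genes, had 0.434, 1.61, 1.43 and 1.16 CPM in aged 46, 47, 50 and 51, and 0.277, 0.665, 0.554 and 0.252 CPM in young 36, 37, 40 and 43. Aged 46 lay within the young range and the other 3 above it. Its log2 fold change was 1.40 ± 0.50 (edgeR adjusted p = 0.92), the single gene of these 3 lists under an unadjusted p of 0.05. Polrmt, the mitochondrial RNA polymerase, had 21 ± 3.4 CPM in the aged and 26.6 ± 4.7 CPM in the young tumours (-0.33 ± 0.16, edgeR adjusted p = 0.92).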

How the data were processed

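Per the file headers, the authors deposited a fragment count, FPM and FPKM per gene and tumour. The deposited FPM equals CPM (the count over the column total), and the deposited FPKM is that CPM per kilobase of the listed length. Upstream tools in the submitters' notes are TopHat2 2.0.12 and Picard 2.7.1 on GRCm38; no source used here names the counting program, so overlapping or near-identical genes may share fragments. Counts were filtered (filterByExpr, minimum count 10, total 15), scaled by TMM and fitted in edgeR 4.0.16 (robust quasi-likelihood, host age the only term), with Benjamini-Hochberg adjustment over 14575 genes. DESeq2 1.42.0, limma 3.58.1 voom with sample weights (called voom here), other scalings and filters, and left-out tumours were alternatives. Tests were tried on simulated data first.

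Members and lists were chosen with earlier results of these data known. Named genes are the 10 members with the smallest p, the highest and lowest per length in each complex, fixed isoforms and core subunits, and the 2 smallest p of each further list. Ndufa11, Ndufaf2, Atp5f1, Ndufa5, Ndufaf3, Ndufb8, Atp5g2 and Atp5g3 are outside that rule and were picked once values were known. Windows and gene coordinates are RefSeq's (GRCm38), exon overlaps GENCODE's. The NRF1 letters were shortened by a base after a first search.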

Additional observations from a re-analysis of the deposited data

Results flagged for a closer look

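Among 82 groups of 4 values that were looked at (the named members and the sums of the complexes), 6 held a tumour far from the other 3, where chance alone gives about 1 in 20. The number given first is the gap to the nearest other tumour as a share of the group's range. It was computed on the deposited CPM, before TMM scaling, and the flags were not repeated on scaled levels. In the aged group aged 51 stood low for Uqcrc1 (0.868, at 140 CPM against 166 to 170), Cox8a (0.841, at 152 CPM against 200 to 209) and Atp5g1 (0.835, at 71.1 CPM against 98.4 to 104). In the young group young 37 stood high for Atp5g1 (0.844, at 113 CPM against 103 to 105) and Ndufaf6 (0.858, at 11.7 CPM against 7.55 to 8.14), and young 36 for Atp5c1 (0.884, at 259 CPM against 233 to 236). After TMM scaling, Uqcrc1 deviated from its log2 mean by -0.11 in aged 51, against 0.007 to 0.165 in the other aged tumours. Atp5g1 deviated by 0.20 in young 37, against 0.03 to 0.12 in the other young tumours. Neither tumour then stood as far apart. Atp5c1 deviated by 0.03 in young 36, against -0.20 to -0.16 in the other young tumours.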

How the results depend on the processing

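The count of 0 member calls was found under all 18 settings, including DESeq2, voom, each tumour left out and the exclusion of aged 50 and young 36, alone or with aged 51. Medians of the complexes moved by less than the spread between tumours. With each tumour left out, the median over all members ran from -0.02 (without young 43) to 0.11 (without young 37), and members above 0 from 42 to 74. The count without overlap between groups, 3, was 1 with no filter on low counts (1.11%, against 2.98% of all genes). The cause of that change was not tested. With a tumour left out the count was 2 to 6, where fewer tumours are compared. It was 2 without aged 47 (2.25%, against 5.43% of all genes), 6 without aged 50 (6.74%, against 8.83%) and 5 without young 36 (5.62%, against 5.33%). It was 9 without aged 50 and young 36 (10.1%, against 11.6%) and 15 without aged 51 as well (16.9%, against 18.3%). Signs of fold changes turned as follows. By voom this was Cox6a1 (-0.013), Cox6b1 (-0.012) and Sdhb (-0.036), with library size only Cox6a1 (-0.0034), and with upper quartile factors Cox6a1 (-0.0070) and Cox6b1 (-0.0008). Without aged 50 and young 36 Cox6b2 went to -0.096 and Ndufa4 to 0.033, and without aged 51 as well Ndufa4 to 0.061, Ndufaf6 to 0.0043 and Atp5s to -0.059. With single tumours left out the ranges were -0.042 to 0.11 (Atp5s), -0.089 to 0.076 (Cox6a1), -0.41 to 0.12 (Cox6a2), -0.076 to 0.080 (Cox6b1), -0.067 to 0.64 (Cox6b2), -0.080 to 0.11 (Cox7a2), -0.14 to 0.10 (Ndufa4), -0.018 to 0.28 (Ndufa7), -0.14 to 0.11 (Ndufaf6) and -0.059 to 0.076 (Sdhb). No paired analysis was possible because the groups share no mouse numbers. Depth limits Cox4i2, Cox6a2, Cox6b2, Cox7a1 and Cox8b.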
